A study of Mus musculus with 16 samples.

Results

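The crystallin genes described here are the 10 genes Cryaa, Cryab, Cryba1, Cryba2, Cryba4, Crybb1, Crybb2, Crybb3, Crygs and Crym, chosen by gene name out of 51912 genes in a count table of mouse retinal pigment epithelium (RPE) libraries. The RPE is a single sheet of pigmented cells that supports the photoreceptors. All mice were C57BL/6 males aged 40 weeks, and the 4 groups were untreated wild type, wild type exposed to hydroquinone, untreated Sucnr1 knockout and Sucnr1 knockout exposed to hydroquinone. Hydroquinone is an oxidant used to impose oxidative stress, and Sucnr1 encodes the succinate receptor. Each group had 4 libraries of 1 eye each, and the groups held 2, 4, 3 and 4 mice in the order above, since 3 untreated mice gave both eyes. Cornea, iris, lens and retina were taken off first, and the RPE was then separated from the choroid with fine forceps. The dose and route of hydroquinone and the way the knockout was made are not given in the sources used here.

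Crystallins are the abundant soluble proteins of the eye lens, whose dense packing makes the lens transparent and refractive. The alpha crystallins Cryaa and Cryab belong to the small heat shock proteins, chaperones that hold unfolding proteins in solution. Cryab is also made in muscle, heart, glia and RPE and is a known stress gene, while the beta and gamma crystallins are mainly structural lens proteins. Crym, mu-crystallin, belongs to another family altogether: it binds thyroid hormone and shares its name through its role in the lens of some marsupials.

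Total counts ranged from 21113549 to 35332444 per library, and 17904 to 24477 genes had at least 1 count. Fewest genes were detected in untreated knockout replicate 1 and untreated wild-type replicate 3. Levels are given as CPM, counts scaled to a library of 1000000 with TMM-adjusted library sizes. The RPE gene Rpe65, the isomerase of the visual cycle, had 3168 ± 667 CPM (SD, n = 16 libraries). Sucnr1 had 29 counts in the 8 wild-type libraries together and 4 in the 8 knockout libraries, and it was at 0 in 4 and 6 of them, so that it checks the genotype labels only weakly. Summed rod markers spanned 267.7 to 25261 CPM across libraries. In bulk RNA, fewer cells of a type and less RNA per cell cannot be told apart.

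All 10 crystallins passed the filter of a mean of at least 1 CPM, which kept 15380 genes. They lie on several chromosomes of GRCm38 (GENCODE M21 annotation). Cryaa lies at chr17:31677807-31681733 on the plus strand and Cryab at chr9:50751325-50756636 on the plus strand. Cryba1 is at chr11:77718615-77725283, Cryba2 at chr1:74889934-74893143, Crygs at chr16:22805203-22811577 and Crym at chr7:120186380-120202111, all on the minus strand. The other 4 lie on chromosome 5: Cryba4 at chr5:112246493-112252518 (minus), Crybb1 at chr5:112255815-112269585 (plus), Crybb2 at chr5:113058258-113070117 (minus) and Crybb3 at chr5:113075839-113081584 (minus). None of the 10 genes shared a 50-base exonic stretch with another crystallin gene.

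RefSeq promoter windows (GRCm38.p6) were on hand for 8 of the 10 genes, all but Cryab and Crym. They are shown because 8 of the crystallins varied together across libraries, as described further on, and because Maf proteins, through the Maf recognition element, are known regulators of lens crystallin genes. Capitals mark TGCTGA, an arm of that palindromic element, or TCAGCA, the same letters on the opposite strand. Inexact matches to the element were not searched for and are not marked. Each sequence is given 5′ to 3′ on the gene's own strand; Cryaa covers chr17:31677811-31677840 (plus), Cryba1 chr11:77725304-77725443 (minus), Cryba2 chr1:74893154-74893293 (minus), Cryba4 chr5:112252529-112252668 (minus), Crybb1 chr5:112255670-112255809 (plus), Crybb2 chr5:113070128-113070267 (minus) and Crybb3 chr5:113081595-113081734 (minus).
Cryaa: gagcattccagcTGCTGAcggtgcagcctc
Cryba1: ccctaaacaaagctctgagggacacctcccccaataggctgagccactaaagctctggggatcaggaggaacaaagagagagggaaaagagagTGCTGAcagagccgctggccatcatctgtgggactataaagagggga
Cryba2: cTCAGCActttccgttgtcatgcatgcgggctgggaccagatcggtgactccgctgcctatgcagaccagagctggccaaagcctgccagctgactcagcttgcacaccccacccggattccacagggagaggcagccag
Cryba4: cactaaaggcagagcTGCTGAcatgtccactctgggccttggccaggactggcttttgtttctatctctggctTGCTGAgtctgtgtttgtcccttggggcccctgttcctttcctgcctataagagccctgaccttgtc
Crybb1: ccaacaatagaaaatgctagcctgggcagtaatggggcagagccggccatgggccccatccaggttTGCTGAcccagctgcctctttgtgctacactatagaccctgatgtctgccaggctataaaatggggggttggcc
Crybb2: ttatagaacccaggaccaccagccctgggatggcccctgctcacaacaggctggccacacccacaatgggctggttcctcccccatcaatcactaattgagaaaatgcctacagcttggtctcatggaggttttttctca
Crybb3: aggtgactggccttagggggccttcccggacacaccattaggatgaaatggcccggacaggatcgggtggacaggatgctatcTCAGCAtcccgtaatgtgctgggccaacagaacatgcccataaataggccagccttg

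Over the 250 bases before the RefSeq start, and on both strands, TGCTGA was found in 7 of the 8 crystallin promoters and in 16.1% of all 32851 promoters. It began 108 bases before the start in Cryaa, 57 in Cryba1 and 84 in Crybb1, on the strand of the gene. Cryba4 held it at 135 and 77 bases before the start and once more farther upstream. On the opposite strand it lay at 149 bases in Cryba2, 67 in Crybb3 and 200 in Crygs, and Crybb2 had none in this window. GAANNTTC, the core of a heat shock element, was in 0 of the 8 and in 6.69% of all promoters. The promoter of Cryab, the known stress gene, was not among those searched. TGACNNNGC, the core of the antioxidant response element, was in 5 of the 8 and in 10.2% of all promoters, and in Cryaa, Cryba1 and Crybb1 it shares the letters TGA with the TGCTGA match. TATAAA was in Cryba1, Crybb1 and Crygs, against 12.4% of all promoters. A match describes letters and does not show binding. Whether such matches have a part in the shared variation across libraries was not tested.

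Cryaa, the alpha crystallin best known from the lens, varied over 95.1-fold between libraries, and its groups overlapped throughout. Its levels were 105, 46.2, 30.5 and 4.88 CPM in untreated wild-type replicates 1 to 4, from 3127, 1181, 742 and 112 counts. With hydroquinone, wild-type replicates had 46.8, 21.1, 5.75 and 7.81 CPM. All 4 treated wild-type libraries lay within the range of the untreated ones. Untreated knockout replicates had 40.1, 4.90, 49.1 and 1.68 CPM, and knockout replicates with hydroquinone had 15.5, 13.4, 7.54 and 1.11 CPM. The untreated knockout group held a high and a low pair, and the lowest library of all was knockout with hydroquinone, replicate 4, with 26 counts. Mean Cryaa was 46.7 ± 42.7 CPM in untreated and 20.4 ± 18.9 CPM in treated wild type (SD, n = 4 each). In the knockout it was 24.0 ± 24.2 CPM untreated and 9.39 ± 6.47 CPM treated (SD, n = 4 each). The mean of Cryaa was 27.2 CPM in untreated wild type without replicate 1, 11.6 CPM in treated wild type without replicate 1 and 15.6 CPM in untreated knockout without replicate 3.

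**Figure D1:**
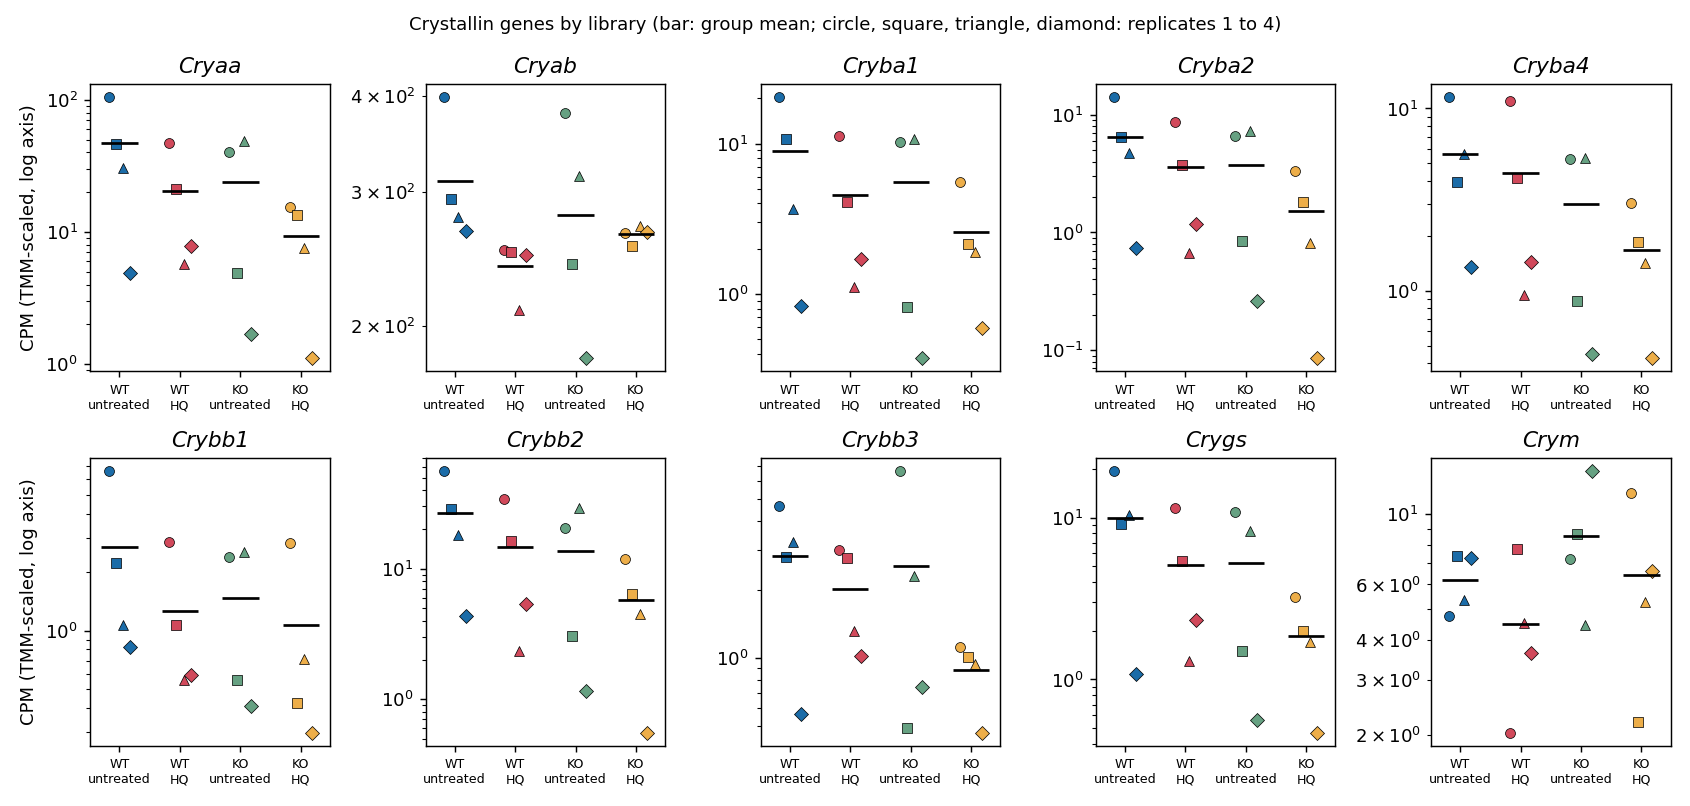
Levels of the 10 crystallins in CPM (log axes, a different range in each panel) in the 4 libraries of each group; symbols stand for replicates 1 to 4 and bars for group means. Cryab stays between 181.4 and 399.3 CPM in all 16 libraries, while Cryaa spans 1.11 to 105 CPM and overlaps between all groups.

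The beta crystallins, lens structural proteins that assemble into oligomers, followed the same libraries. Crybb2, the beta crystallin with the highest level per length, had 56.0, 28.5, 18.2 and 4.35 CPM in untreated wild type and 34.2, 16.3, 2.34 and 5.35 CPM in treated wild type. In the knockout it had 20.6, 3.04, 29.4 and 1.16 CPM untreated and 11.8, 6.39, 4.46 and 0.554 CPM treated. As for Cryaa, untreated wild-type replicate 1 was highest and knockout with hydroquinone, replicate 4, was lowest. The Crybb2 count was 0.407 to 0.893 of the Cryaa count in every library, a narrow band beside the 101-fold span of its own level. The SD of the log2 ratio was 0.30, against 1.89 for log2 Crybb2 itself.

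The acidic beta crystallins were lower per length. Cryba1, which is known to act in the RPE as well as in the lens, ranged from 0.373 to 20.5 CPM, Cryba2 from 0.0853 to 14.2 CPM and Cryba4 from 0.426 to 11.6 CPM. All 3 were highest in untreated wild-type replicate 1, and the lowest library of Cryba2 held 2 counts. Mean Cryba1 was 8.92 ± 8.74 CPM in untreated and 4.52 ± 4.63 CPM in treated wild type, and 5.55 ± 5.73 CPM in untreated and 2.56 ± 2.13 CPM in treated knockout (SD, n = 4 each). In each group the SD was close to the mean. Without replicate 1 of the group, the mean of Cryba1 was 5.07 CPM in untreated wild type, 2.30 CPM in treated wild type and 1.55 CPM in treated knockout. The basic members Crybb1 and Crybb3 were the lowest per length, with means over all libraries of 1.62 ± 1.63 and 2.07 ± 1.74 CPM (SD, n = 16), and their lowest libraries held 7 and 11 counts. Crybb3 alone among the lens-type genes was highest in untreated knockout replicate 1, with 6.65 CPM, above 4.69 CPM in untreated wild-type replicate 1.

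Crygs, gamma S-crystallin, the gamma-type protein of the adult lens, had 19.4, 9.11, 10.4 and 1.09 CPM in untreated wild type and 11.4, 5.38, 1.31 and 2.33 CPM in wild type with hydroquinone. In knockout it had 10.8, 1.5, 8.21 and 0.560 CPM untreated and 3.25, 1.99, 1.71 and 0.469 CPM with hydroquinone. The 4 groups again overlapped. The clustered gamma crystallins of chromosome 1, the main proteins of the lens core, were close to absent by comparison. Cryga, Cryge and Crygf had 0 counts in all 16 libraries, and a count of 0 allows up to 3 counts in a library by counting error alone. Crygb had 0 to 27 counts, Crygc 0 to 11 and Crygd 0 to 16. Between 19.7% and 48.3% of the 50-base exonic stretches of Cryga to Crygf recur in other gamma genes, so their split, and a 0 among them, is uncertain. The 6 together had 0 to 43 counts per library, or 0 to 22.8 per 1000 counts of the 8 lens-type crystallins, the 10 genes without Cryab and Crym. Crygn, gamma N-crystallin, a gamma-type gene with no such shared stretch, had 148 to 366 counts in every library, and it did not follow Cryaa (Spearman -0.14, Pearson r -0.29, 16 libraries).

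The 8 lens-type crystallins ranked the libraries alike. All 8 had their upper 8 values in the same 7 libraries, joined for 7 of the 8 genes by knockout with hydroquinone, replicate 1. These 8 libraries were 3 untreated wild type, 2 wild type with hydroquinone, 2 untreated knockout and 1 knockout with hydroquinone, and they came from 6 mice. Untreated wild-type replicate 1 was highest for 7 of the 8 genes, and knockout with hydroquinone, replicate 4, was lowest for 7 of the 8. Summed over the 8 genes, levels ran from 4.01 to 238 CPM, with group medians of 93.7, 40.0, 57.9 and 24.3 CPM in untreated wild type, treated wild type, untreated knockout and treated knockout. High and low libraries thus occurred in every group. Of the 8 upper libraries, 6 had an identifier without a letter, a form of the library name held by 9 of the 16, and they included both libraries with the fewest detected genes. The part of these features was not tested.

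**Figure D2:**
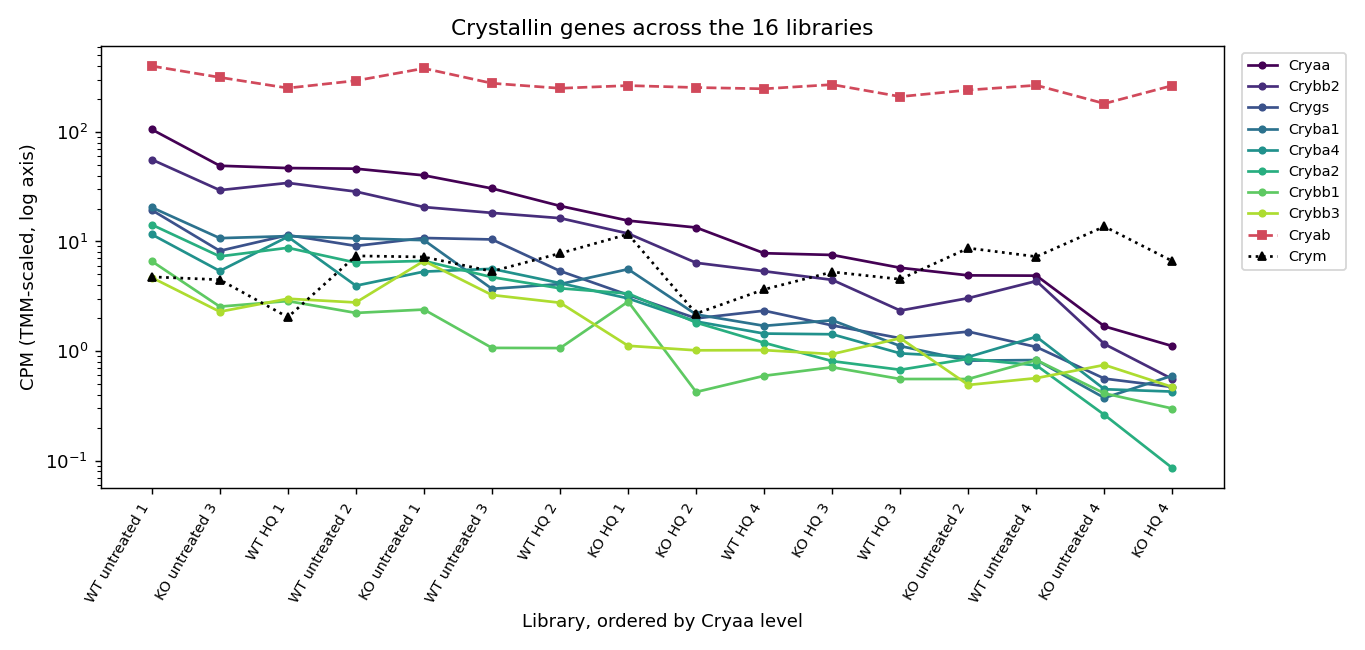
Levels in CPM (log axis) of the 10 crystallins in each library, ordered by Cryaa. The 8 lens-type genes descend together from untreated wild-type replicate 1 to knockout with hydroquinone, replicate 4. Cryab (squares) changes far less but tends to be higher where they are high (Spearman 0.618 with Cryaa). Crym (triangles) does not follow them (Spearman -0.36).

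Across the 16 libraries, the 7 other lens-type crystallins held ranks 1 to 7 of all tested genes by Spearman correlation with Cryaa on log2(CPM + 1). The Spearman correlation with Cryaa was 0.985 for Crybb2, 0.979 for Cryba2, 0.976 for Cryba1, 0.956 for Crygs and for Cryba4, 0.876 for Crybb3 and 0.868 for Crybb1. Pearson's r for Crybb2 was 0.988, and it was 0.982 without the 2 libraries farthest from the median of Cryaa. Within the 9 libraries without a letter the Spearman correlation for Crybb2 was 0.983, and within the 7 with a letter it was 1.0. With 1 value per mouse, 13 in all, the Spearman correlation was 0.989. These are descriptions over libraries that share mice and scaling. Outside the crystallins, the genes most like Cryaa were Pla2g16, a lipase gene, with a Spearman correlation of 0.826, Bag1 with 0.821, Ndufa8 with 0.809, Clec3b with 0.800 and Lsm6 with 0.788, each below the lowest of the 7. Cryab ranked 259th with a Spearman correlation of 0.618 (Pearson 0.724), and Crym 13345th with a Spearman correlation of -0.36.

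The spread of the lens-type crystallins was high among all tested genes. The SD of log2(CPM + 1) over the 16 libraries was 1.64 for Cryaa, above that of 99.3% of tested genes, and 1.55 for Crybb2, above 99.2%. It was lowest of the lens-type genes for Crybb1 and Crybb3, 0.73 each, above 92.9%. The median gene had an SD of 0.27. Cryab, with 0.28, was close to that median, and Crym, with 0.62, exceeded 89.8% of genes. Within groups the SD of Cryaa was 1.65, as large as over all libraries.

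Both eyes of 1 mouse could differ widely. In one untreated wild-type mouse the right eye (replicate 3) had 30.5 CPM of Cryaa and the left eye (replicate 4) 4.88 CPM, a 6.25-fold difference, while Cryab differed by 1.04-fold between the same eyes. Crygs differed by 9.59-fold in that mouse and Crybb1 by 1.29-fold. In the other untreated wild-type mouse the right eye (replicate 1) had 2.28 times the Cryaa level of the left (replicate 2). The eyes of the untreated knockout mouse were closer, with 49.1 CPM on the right (replicate 3) and 40.1 CPM on the left (replicate 1) for Cryaa, though Crybb3 was 2.91-fold higher on the left. In both wild-type mice the right-eye identifier had no letter and the left one did, so that the side and the identifier form cannot be told apart there. In the knockout mouse the forms were the other way round.

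Lens genes other than crystallins were mostly at or near 0. Of 13 such genes, 4 passed the expression filter. Lim2, which encodes an abundant membrane protein of lens fibres, had 0 counts in all 16 libraries. Lenep was at 0 in 13 libraries and Foxe3 in 12. Mip, the lens aquaporin gene, was detected in every library at 0.212 to 4.31 CPM, and its Spearman correlation with Cryaa was 0.591 (Pearson 0.570, 16 libraries). It was not in a fixed proportion to Cryaa: there were 10.6 to 467 Mip counts per 1000 Cryaa counts. Mip was highest not where Cryaa peaked but in untreated wild-type replicate 3, at 4.31 CPM, against 1.11 CPM in replicate 1.

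The beaded-filament gene Bfsp1 had a Spearman correlation of 0.729 with Cryaa at 0.714 to 4.89 CPM, whereas its partner Bfsp2, at 13.2 to 34.3 CPM, had -0.12 and Hsf4, the heat shock factor of the lens, had 0.150 at 8.38 to 18.1 CPM. Those last 2 genes made up most of the summed lens list, which spanned 37.4 to 51.1 CPM in untreated wild type, 33.5 to 42.2 in treated wild type, 27.9 to 53.2 in untreated knockout and 28.6 to 55.6 in treated knockout. Without Bfsp1, Bfsp2 and Hsf4 the other 10 lens genes summed to 1.45 to 9.04 CPM per library. Their highest sums, 9.04, 7.03 and 6.76 CPM, were in untreated wild-type replicate 3, untreated knockout replicate 1 and wild type with hydroquinone, replicate 1, which are all among the 8 libraries high in crystallins. How far lens RNA and RNA made by the RPE each account for the crystallin counts was not tested.

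Marker lists of other tissues moved with Cryaa more loosely than its fellow crystallins did. Over 16 libraries, the Spearman correlation of Cryaa with the mean log2 level of a marker list was 0.81 for the lens list, 0.73 for heat shock factor targets, 0.66 for small heat shock genes, 0.49 for skeletal muscle, 0.42 for oligodendrocytes, 0.37 for corneal epithelium, 0.11 for rods and -0.16 for RPE. Skeletal muscle markers summed to 5543 CPM in untreated wild-type replicate 1, the highest library for Cryaa, and to 1861 CPM in knockout with hydroquinone, replicate 4, the lowest. Untreated knockout replicate 3, next to the highest for Cryaa at 49.1 CPM, had only 1573 CPM of muscle markers. Rod markers, in contrast, were highest in untreated knockout replicate 4, at 25261 CPM, where Cryaa was 1.68 CPM. Whether these tissues had a part in the crystallin levels was not tested.

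**Figure D3:**
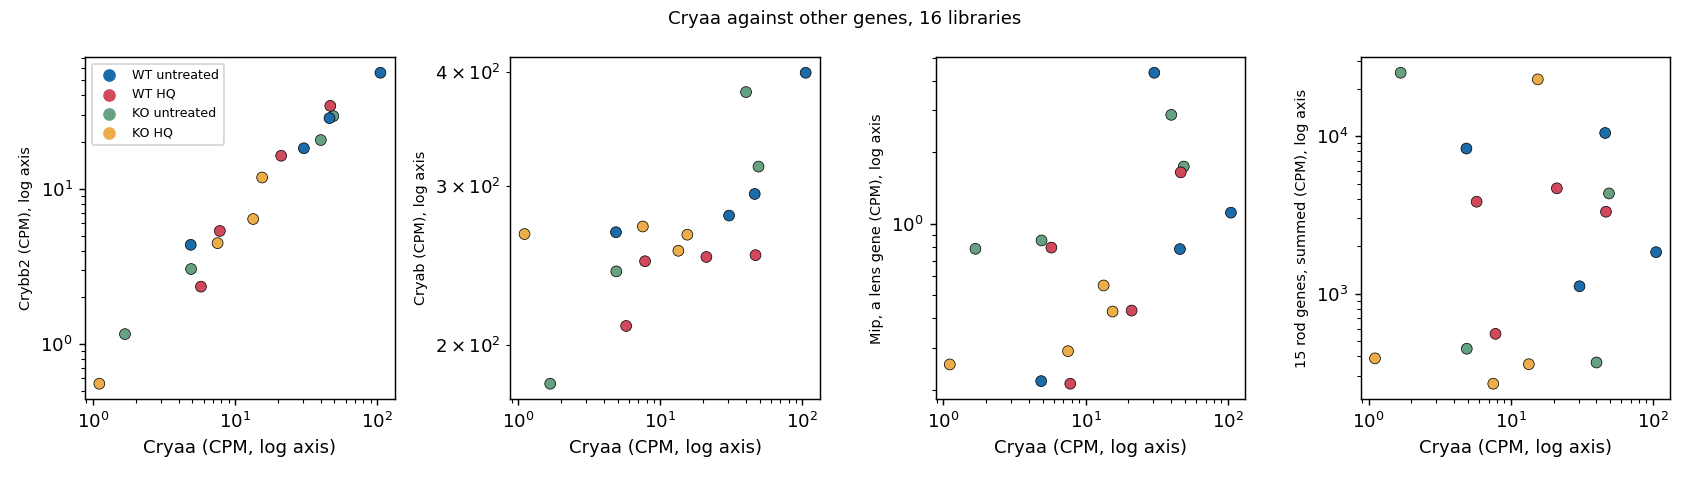
Cryaa (CPM, log axis) against Crybb2, Cryab, Mip and the sum of 15 rod genes (CPM, log axes) in the 16 libraries, coloured by group. Crybb2 lies along a line with Cryaa (Spearman 0.985), Cryab and Mip scatter more (Spearman 0.618 and 0.591), and the rod sum shows little slope with Cryaa (Spearman 0.11 for the mean log2 level of rod genes).

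Cryab, alpha B-crystallin, was the one crystallin with a high and even level. It had 399.3, 293.6, 278.0 and 266.5 CPM in untreated wild-type replicates 1 to 4, and 251.4, 250.3, 210.1 and 247.6 CPM in wild type with hydroquinone. No treated wild-type library reached the lowest untreated one; of all tested genes, 1.78% were lower without overlap in this comparison. In the knockout it had 380.2, 241.3, 314.7 and 181.4 CPM untreated and 264.8, 254.2, 270.4 and 265.2 CPM treated. All treated knockout values sat within the untreated knockout range, and the untreated knockout group held both the second highest and the lowest library of the series. The treated knockout libraries were all above the treated wild-type ones, as were 1.72% of tested genes. In the remaining directions 0 of the 10 crystallins had groups that did not overlap, beside 1.13% of tested genes higher with hydroquinone in wild type, and 0.728% lower and 1.18% higher with hydroquinone in knockout. For knockout against wild type the shares of tested genes were 0.67% lower and 0.384% higher untreated, and 0.605% lower under hydroquinone. Group means were 309 ± 61.0, 239.8 ± 19.9, 279 ± 86.5 and 264 ± 6.78 CPM (SD, n = 4 each) in the order of groups above. The highest library held 2.20 times the Cryab of the lowest, close to the 2.07-fold of the median gene.

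The ratio of Cryab to Cryaa counts ran from 3.79 in untreated wild-type replicate 1 to 239 in knockout with hydroquinone, replicate 4. Even so, Cryab was somewhat higher where the lens-type genes were high, with a Spearman correlation of 0.618 with Cryaa over 16 libraries, 0.500 with 1 value per mouse, 0.733 in the libraries without a letter and 0.714 in those with one. Pearson's r, 0.724 over all 16 libraries, was 0.529 without the 2 libraries farthest from the median of Cryab. Without the 2 farthest from the median of Cryaa it was 0.744. Its nearest genes were Nbl1 with a Spearman correlation of 0.909, Mief2 with 0.891, Cyc1 with 0.874, Prkag2 with 0.856 and Fkbp5, a glucocorticoid-induced chaperone gene, with 0.847. Hspb2, its neighbour in the small heat shock family, ranked 7th with 0.83, and Hspb8 23rd with 0.785. Across marker lists, the Spearman correlation of Cryab was 0.70 with the lens list, 0.65 with small heat shock genes and 0.62 with gamma crystallins. With oligodendrocyte markers it was 0.52, with Mueller glia 0.43, with heat shock factor targets 0.27 and with RPE markers 0.16. Values below 0 included -0.14 with oxidant response genes and -0.35 with inner retinal neuron markers. Hspb2 and Cryab share 252 exonic bases on opposite strands, and the strand setting of the counting is not given in the sources used here, so the reads of these 2 genes may not be cleanly separated. Hspb2 had 3630 counts in all libraries together. Cryaa likewise overlaps an antisense gene, AC090881.2, over 273 exonic bases.

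Crym, the thyroid hormone-binding protein, ran its own course. It had 4.75, 7.39, 5.34 and 7.27 CPM in untreated wild type and 2.04, 7.79, 4.52 and 3.65 CPM in wild type with hydroquinone. In knockout it had 7.22, 8.70, 4.48 and 13.7 CPM untreated and 11.7, 2.20, 5.27 and 6.61 CPM with hydroquinone. The groups overlapped, and its highest library, untreated knockout replicate 4, was among the lowest 2 for Cryaa. Its nearest genes were Grm7 with a Spearman correlation of 0.859, 4930430F08Rik with 0.826, Nalcn with 0.826, Ptprr with 0.776 and Qpct with 0.771. Grm7 and Nalcn encode a glutamate receptor and a sodium leak channel of neurons. The Spearman correlation of Crym was 0.43 with inner retinal neuron markers, 0.44 with rod markers and 0.40 with cone markers. Values of like or larger size and opposite sign were -0.56 with gamma crystallins, -0.55 with oxidant response genes, -0.46 with other crystallin-named genes and -0.40 with RPE markers. A part of retinal RNA in the Crym level was not tested.

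Per length, as CPM per kilobase of merged exons, Cryab stood far above the rest. It averaged 184.6 CPM per kilobase, 169th of 15355 genes with a length, and was above every other crystallin in 16 of 16 libraries. Cryaa followed with 12.1 and was above Crybb2, with 7.54, in 16 of 16 libraries. Below them, some neighbours in the order changed places between libraries about as often as not. Crybb2 was above Crygs, with 6.35, in 9 of 16 libraries, and Cryba1, with 3.38, above Cryba2, with 3.23, in 10 of 16. Crygs exceeded Cryba4, with 4.39, in 14 of 16 and Cryba4 exceeded Cryba1 in 13 of 16. Cryba2 exceeded Crym, with 1.89, in 8 of 16, Crym exceeded Crybb1, with 1.65, in 11 of 16 and Crybb1 exceeded Crybb3, with 0.886, in 12 of 16.

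**Figure D4:**
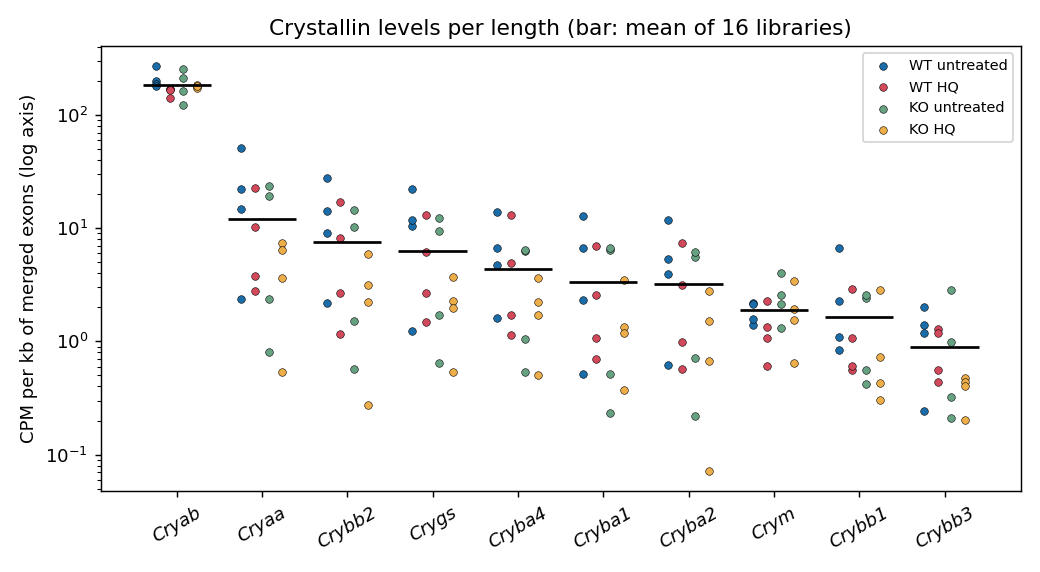
Level per length (CPM per kilobase of merged exons, log axis) of each crystallin, with 1 point per library coloured by group and a bar at the mean of 16 libraries. Cryab, at 184.6, lies above all other crystallins in every library, and Cryaa, at 12.1, above Crybb2.

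To ask whether hydroquinone altered the crystallins, treated libraries were compared with untreated ones in edgeR's quasi-likelihood test across all 15380 genes, with Benjamini-Hochberg adjustment and a threshold of 0.05. In wild type 0 of the 10 crystallins were called, beside 0.0065% of all tested genes, which is 1 gene. In knockout 0 of 10 were called, beside 0.0455% of all genes, and averaged over genotype 0 of 10, beside 0.0845%. At an unadjusted p under 0.05 the count of crystallins was also 0 in each of the 3 comparisons, against 658, 456 and 879 of all genes. The fitted log2 fold changes of all 10 were nonetheless below 0 in both genotypes. Their median was -0.87 in wild type and -1.16 in knockout, while the median of all tested genes was -0.0002 and -0.0014. Since 8 of the 10 vary together, these signs are not 10 separate observations. Single libraries weighed heavily: with each library left out in turn, the wild-type value of Cryaa ran from -2.01 without treated replicate 1 to -0.42 without untreated replicate 1, and that of Cryba1 from -1.95 to -0.16 without the same libraries. In knockout the value of Cryaa ran from -1.74 without untreated replicate 4 to -0.72 without untreated replicate 3.

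Several marker lists of other cell types had lower fitted values in the same comparisons and others did not, with 0 genes called in any. For hydroquinone in wild type the median log2 fold change was -2.93 for oligodendrocyte genes (7 of 8 lower), -1.55 for Mueller glia genes (6 of 7 lower), -0.79 for rod genes (15 of 15 lower) and -0.49 for skeletal muscle genes (10 of 10 lower). In knockout it was -1.33 for inner retinal neuron genes (10 of 12 lower), -0.55 for oligodendrocyte genes (8 of 8 lower), -0.32 for rod genes (15 of 15 lower), -0.25 for Mueller glia genes (6 of 7 lower) and -0.23 for skeletal muscle genes (10 of 10 lower). Cone genes had medians of -0.56 in wild type and -0.33 in knockout, and inner retinal neuron genes had -0.23 in wild type. The RPE list had 0.02 in wild type and 0.01 in knockout. Corneal epithelium genes had 0.08 and 0.11, and choroid genes 0.07 and 0.25, in the same order. Smooth muscle genes had -0.10 in wild type and 0.32 in knockout. The 4 lens genes tested had a median of -0.31 in wild type (3 of 4 lower, range -1.05 to 0.04). In knockout their median was -0.24 (2 of 4 lower, range -2.02 to 0.41). Mean Mip was 1.61 ± 1.84 CPM in untreated and 0.77 ± 0.63 CPM in treated wild type (SD, n = 4 each). In the knockout it was 1.56 ± 0.98 CPM untreated and 0.38 ± 0.13 CPM treated (SD, n = 4 each). The part of these cell types in the lower crystallin values was not tested.

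Averaged over genotype, the log2 fold change of Cryaa under hydroquinone was -1.27 ± 0.74 (SE; edgeR adjusted p = 0.914), with an approximate 95% interval of -2.72 to 0.18. Crygs had -1.23 ± 0.66 (edgeR adjusted p = 0.901), Crybb3 -0.99 ± 0.52 (0.901) and Crybb2 -1.05 ± 0.74 (0.914). The intervals leave room for a several-fold lower level as well as for none. Cryab had -0.37 ± 0.19 in wild type (edgeR adjusted p = 0.994). In knockout Cryab had -0.08 ± 0.19 (edgeR adjusted p = 1.0). The interval for Cryab averaged over genotype, -0.48 to 0.03, was far tighter than that for Cryaa. The difference between genotypes in the response of Cryab was 0.28 ± 0.26 on the log2 scale (edgeR adjusted p = 1.0), so the response was not shown to differ. Crym had -0.43 ± 0.34 averaged over genotype (edgeR adjusted p = 0.916).

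**Figure D5:**
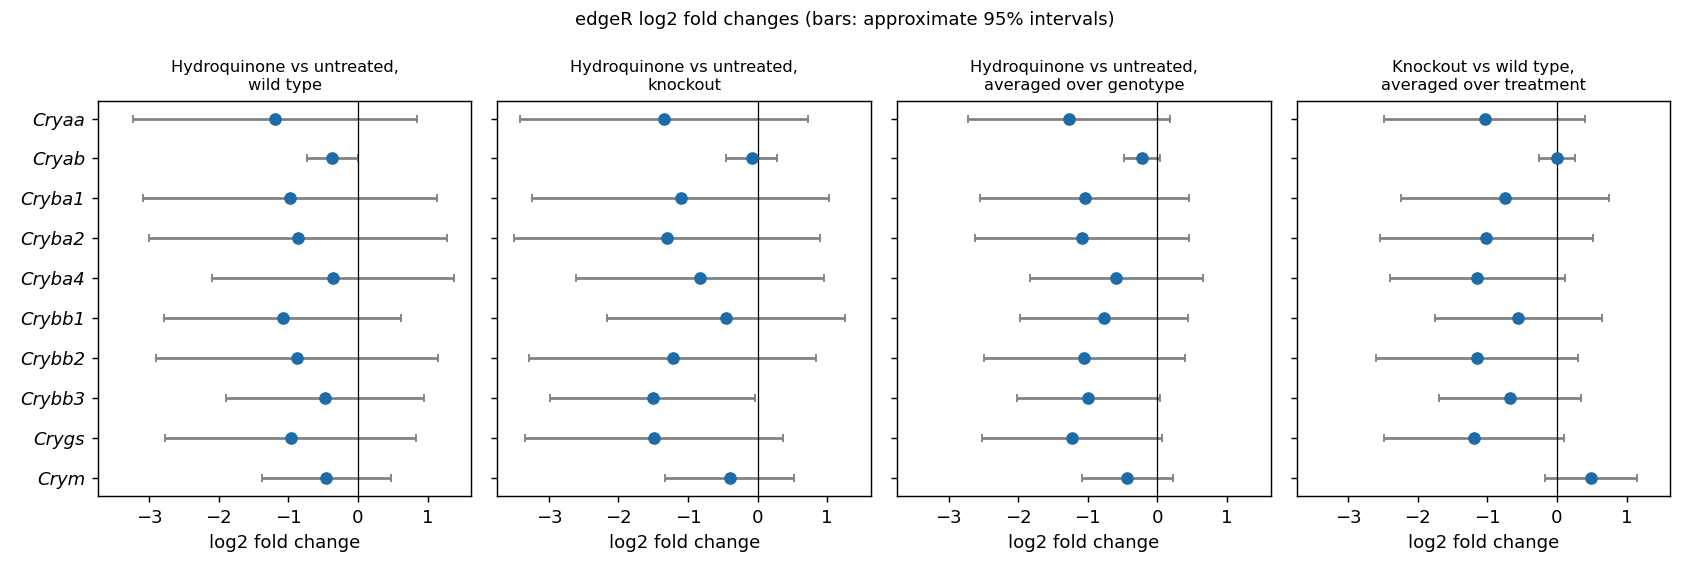
Log2 fold changes from edgeR for the 10 crystallins with approximate 95% intervals, for hydroquinone in each genotype and averaged, and for knockout against wild type averaged over treatment. The lens-type genes have wide intervals centred below 0, Cryab has narrow ones, and no gene passed the adjusted threshold.

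Loss of Sucnr1 was examined in the same fit. In each of knockout against wild type untreated, under hydroquinone and averaged over treatment, and in the interaction of genotype with hydroquinone, 0 of 10 crystallins were called, beside 0.0% of all genes by edgeR. The unadjusted p was under 0.05 for 203, 643, 456 and 296 of all genes in these 4 comparisons and for 0 of the 10 crystallins. Averaged over treatment, the log2 fold change of knockout against wild type was -1.04 ± 0.74 for Cryaa, -1.19 ± 0.66 for Crygs and -1.15 ± 0.74 for Crybb2 (edgeR adjusted p = 0.987 for each). For Cryab it was -0.01 ± 0.13 (edgeR adjusted p = 0.997), with an interval of -0.26 to 0.25. Crym was the only one of the 10 with a positive value averaged over treatment, 0.49 ± 0.34 (edgeR adjusted p = 0.987). The comparisons within a treatment share their libraries with the averaged ones. DESeq2, limma-voom and all other alternatives also called 0 of the 10 in every comparison, with a smallest adjusted p of 0.357.

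No stress relative of the alpha crystallins passed the same test. Among the 8 small heat shock genes with their partner Bag3, 0 passed in any comparison. For hydroquinone in wild type their log2 fold changes ran from -0.51 for Hspb2 to 0.66 for Hspb1, with a median of -0.09, and in knockout from -0.26 for Hspb6 to 0.31 for Hspb8. Hspb8, a chaperone partner of Bag3, had a lower mean with hydroquinone in wild type, as Cryab did, but a higher one in knockout, where Cryab had a lower one. Its mean was 99.1 ± 13.2 CPM in untreated and 70.8 ± 5.06 CPM in treated wild type, and 83.9 ± 27.2 and 104 ± 8.91 CPM in the knockout (SD, n = 4 each; edgeR adjusted p = 0.994 and 1.0). Of 9 heat shock factor genes and targets, 0 passed, with medians of -0.002 in wild type and 0.002 in knockout. Hspa1a, the inducible chaperone, had 0.55 in wild type and 0.28 in knockout on the log2 scale.

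Genes of the oxidant response, many of them targets of Nrf2, did pass the test in the same libraries. Of 9 such genes, 4 rose with hydroquinone in knockout and 6 in the average over genotype, beside 0.0455% and 0.0845% of all tested genes called. In wild type 0 passed, though 8 of the 9 had a higher fitted value, with a median of 0.53. The interaction of genotype with hydroquinone called 0 of the 9, so the response was not shown to differ between genotypes. Osgin1, an oxidative stress-induced growth inhibitor, rose by 1.39 ± 0.16 on the log2 scale in knockout (SE; edgeR adjusted p = 0.0022), and Gstm1, a glutathione transferase, by 1.07 ± 0.13 (edgeR adjusted p = 0.0024). The fitted value of Cryaa in the same comparison, -1.35 ± 1.05, was of like size with a far larger standard error. In wild type Osgin1 had 1.05 ± 0.16 (edgeR adjusted p = 0.060).

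Genes that carry a crystallin name without being lens crystallins followed Cryaa less closely than the lens-type crystallins did. Cryz, a quinone oxidoreductase, its relative Cryzl1 and Cryl1, a sugar dehydrogenase, averaged 49.5 ± 6.64, 37.2 ± 4.52 and 15.4 ± 3.02 CPM (SD, n = 16). The Crybg1, Crybg2 and Crybg3 genes, which hold beta-gamma crystallin domains, averaged 123 ± 33.7, 62.6 ± 32.2 and 48.5 ± 8.82 CPM. The Spearman correlation with Cryaa lay between -0.13 for Cryl1 and 0.44 for Crybg2 over 16 libraries. With 1 value per mouse it was 0.709 for Crybg2 and 0.522 for Crybg1, against 0.885 or more for each of the 7 other lens-type crystallins. In all 7 comparisons 0 of these 6 genes were called by edgeR. An unadjusted p under 0.05 was seen for Cryl1 under hydroquinone in knockout and averaged over genotype, and for Crybg1 in knockout against wild type under hydroquinone.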

How the data were processed

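RNA of each eye was isolated on columns and read on a NovaSeq instrument, per the labels' protocols. The deposited table holds raw counts per Ensembl gene for 16 libraries. It is named as an FPKM table, yet 100% of the values are whole and totals differ, so a count test was used. Per the submitters' processing notes, the build was mm10 and STAR, Cufflinks and DESeq2 were used; their versions, roles and strand settings are not given in the sources used here. Symbols came from GENCODE M21 and promoter windows from RefSeq.

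The main test was edgeR 4.0.16 (R 4.3.3), quasi-likelihood, with TMM scaling and all 4 groups in 1 model, on the 15380 genes averaging 1 CPM or more (99.8% of counts), with Benjamini-Hochberg adjustment across them. Intervals are the fold change ± 1.96 SE, slightly narrower than the test itself implies. Alternatives were DESeq2 1.42.0, limma-voom 3.58.1 with the mouse as a random block (within-mouse correlation 0.0067), other scalings and filters, eyes summed, the identifier form as covariate, and each library left out. Scripts were tested on simulated counts. The titles name 13 mice, whereas the protocol gives 4 per group, and the titles were followed. Because edgeR treated eyes as separate libraries, p-values measure the spread between libraries. In the treated groups each library came from another mouse. The untreated groups, with 2 wild-type and 3 knockout mice, mix the spread within and between mice. Replicate numbers follow accession order. The members and lists were chosen with earlier results of these data known. Named genes were all members, other crystallin-named genes with counts, listed genes that passed or had high levels, and the 5 genes most like Cryaa, Cryab and Crym; Hspb2, Mip and other lens genes singled out beyond that were chosen after their values were seen.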

Additional observations from a re-analysis of the deposited data

Results flagged for a closer look

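Cryab in wild type with hydroquinone had 1 library apart from its group: replicate 3, at 210.1 CPM, below 247.6, 250.3 and 251.4 CPM in the other 3. Its gap to the nearest library was 0.914 of the range of the group on log2(CPM + 1), above Dixon's 95% critical value for 4 samples. Each of the 10 crystallins was examined in each of the 4 groups, 40 sets in all, and chance flags about 1 in 20, or 2 of them.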

How the results depend on the processing

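The count of 0 crystallins called held under every alternative run, 18 to 25 for each of the 7 comparisons and 147 fits of a comparison in all. Signs were followed only for hydroquinone in wild type, in knockout and averaged over genotype, and for knockout against wild type averaged over treatment. Among these comparisons, the sign changed for Cryab, Crybb1 and Cryba4. For Cryab, knockout against wild type averaged over treatment (reported as -0.01) was 0.013 without a filter on low counts and 0.011 with the identifier form as covariate. Leaving out each library gave -0.098 to 0.074. For Cryab, hydroquinone in knockout (reported as -0.08) was 0.053 when both eyes of a mouse were summed, 0.080 without the 2 libraries with the fewest detected genes and 0.11 in libraries with a letter. Leaving out each library gave -0.24 to 0.10. Crybb1, hydroquinone in knockout, was 0.13 in libraries without a letter, against -0.45. Cryba4, hydroquinone in wild type (-0.35), ran from -1.36 to 0.27 when libraries were left out, the last without untreated wild-type replicate 1. The cause was not tested. Leaving out 1 library moved 21 of the 40 group means by over 1.5 times, all in the lens-type genes. In the comparisons followed for sign, the other log2 fold changes kept theirs: 372 of 378 under the other settings and 471 of 480 with a library left out. The last 3 settings named (fewest genes, with and without a letter) were chosen after seeing the data; libraries with a letter include 1 of treated wild type, assumed to vary like the other groups. Depth limits Crybb1, Crybb3 and the gamma genes, which had few counts.

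No paired analysis was possible because the labels give no replicate numbers shared between groups, and each mouse belongs to 1 group.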
